A study of Mus musculus with 6 samples.

Results

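The genes described here are 8 genes of monocytes and of their recruitment, chosen by symbol and matched to their Ensembl IDs in both deposited tables: Ly6c2, Ccr2, Plac8, Chil3, Fn1, Vcan, Cx3cr1 and Ccr1. They were read in tumor-associated macrophages (TAMs) to ask whether TAMs without PD-1 look more monocyte-derived than TAMs that can make it. All 8 were found among the 55421 genes of the count table, and all 8 were among the 14469 genes that passed the filter on low counts and were tested.

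TAMs came from tumors of Pdcd1f/f and Pdcd1f/fLysMcre mice, collected 15 days after fibrosarcoma cells were implanted, with 3 RNA-seq libraries for each genotype. Both genotypes carry floxed alleles of Pdcd1, the gene for the inhibitory receptor PD-1, and they differ in a Cre recombinase driven by the lysozyme M promoter, which is active in myeloid cells at large and not in TAMs alone. The mice were 8 to 12 weeks old at implantation and received no other treatment named in the labels. The labels describe the cells as CD11b+F4/80+ and call the implanted cells M17, and the methods written for TAMs of another floxed strain of the study, bearing MC17-51 tumors, add gates on live CD45+ and on Ly6G− cells. Nothing in the labels says whether a library is 1 mouse or a pool, so p-values measure the spread between these libraries.

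Classical monocytes leave the bone marrow through the receptor CCR2, carry Ly6C on their surface and enter inflamed tissue and tumors, where they can turn into macrophages. During this change the transcripts typical of blood monocytes generally decline and those of mature macrophages, such as scavenger receptors and complement C1q, increase. CX3CR1 is the receptor of fractalkine and marks the nonclassical, patrolling monocytes and several kinds of tissue macrophage, so the genes studied here do not all stand for the same cell.

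Total counts per library were between 41833823 and 51417209, and at this depth 3 counts correspond to 0.0583 to 0.0717 CPM (counts scaled to the size of the library), a floor that covers counting error only. Markers of the sorted cells were high in every library, with means of 685.8 and 525.9 CPM for Adgre1 (the gene of F4/80), 395.9 and 353.6 CPM for Itgam (CD11b) and 563.0 and 606.4 CPM for Ptprc (CD45) in Pdcd1f/f and Pdcd1f/fLysMcre TAMs. Of 5 such markers, 2 were lower past the threshold in Pdcd1f/fLysMcre TAMs, Adgre1 (log2 fold change −0.38, adjusted p = 0.00496 from edgeR) and Csf1r (−0.32, adjusted p = 0.0308), whereas neither passed without Pdcd1f/f replicate 2 or Pdcd1f/fLysMcre replicate 1 and 1 passed without Pdcd1f/f replicate 3 or Pdcd1f/fLysMcre replicate 2. Without both Pdcd1f/f replicate 1 and Pdcd1f/fLysMcre replicate 2, 3 of the 5 were lower. Pdcd1 itself was near the detection limit, at 0.276 ± 0.076 and 0.23 ± 0.0929 CPM (SD, n = 3), and counts summed over a gene cannot show the deletion of single exons (adjusted p = 0.771 from edgeR). Lyz2, the lysozyme M gene that carries the Cre, was at 4593.3 CPM in Pdcd1f/f and at 9.06 CPM in Pdcd1f/fLysMcre TAMs, while its paralog Lyz1 was at 3.3 and 76.9 CPM, so the loss of Lyz2 and the deletion of Pdcd1 cannot be told apart in any comparison below. The 4 Y-linked genes read here added up to 32.6 to 40.4 CPM in Pdcd1f/f and to 133.0 to 153.4 CPM in Pdcd1f/fLysMcre libraries, so the mix of sexes and the genotype cannot be told apart either. Trends with GC content were read on deviations that balance out within a genotype, so a falling trend in 1 library goes with rising ones in others. They cannot show which library is unusual. Pdcd1f/f replicate 1 and Pdcd1f/fLysMcre replicate 2 had trends opposite in sign to those of the other libraries of their genotype. Across 14454 genes their deviations from the mean of their genotype declined with the GC content of the transcripts (Spearman rho −0.579 and −0.49, as a description), whereas rho was 0.117 to 0.511 in the others, and results of the 8 genes and of the lists whose counts moved are therefore also given without these 2 libraries.

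Promoter sequences of 4 of the genes are shown because the comparison turns on them: Ly6c2 is the defining monocyte gene, Ccr2 and Ccr1 are neighbouring receptor genes on chromosome 9, and Vcan had the largest difference between genotypes. Each is the 250 bases before the RefSeq start site in GRCm38.p6, written 5′ to 3′ on the strand of the gene. Capitals mark the letters GAGGAAG or their reverse complement, the core bound by the myeloid factor PU.1.
Ly6c2, chr15:75111972-75112221, minus strand: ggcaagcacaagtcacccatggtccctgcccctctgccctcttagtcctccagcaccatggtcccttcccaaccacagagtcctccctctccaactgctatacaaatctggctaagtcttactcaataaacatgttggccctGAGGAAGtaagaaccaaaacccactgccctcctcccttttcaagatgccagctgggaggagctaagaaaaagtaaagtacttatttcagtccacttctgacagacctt
Ccr2, chr9:124101933-124102182, plus strand: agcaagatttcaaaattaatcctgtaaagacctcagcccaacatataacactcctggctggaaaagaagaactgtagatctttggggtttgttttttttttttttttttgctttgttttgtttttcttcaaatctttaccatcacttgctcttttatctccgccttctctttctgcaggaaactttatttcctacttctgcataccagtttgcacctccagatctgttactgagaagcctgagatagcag
Ccr1, chr9:123968693-123968942, minus strand: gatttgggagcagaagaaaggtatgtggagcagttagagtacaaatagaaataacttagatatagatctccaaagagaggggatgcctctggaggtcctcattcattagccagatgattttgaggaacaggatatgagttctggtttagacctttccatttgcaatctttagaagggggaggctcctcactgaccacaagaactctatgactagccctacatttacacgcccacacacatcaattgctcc
Vcan, chr13:89742513-89742762, minus strand: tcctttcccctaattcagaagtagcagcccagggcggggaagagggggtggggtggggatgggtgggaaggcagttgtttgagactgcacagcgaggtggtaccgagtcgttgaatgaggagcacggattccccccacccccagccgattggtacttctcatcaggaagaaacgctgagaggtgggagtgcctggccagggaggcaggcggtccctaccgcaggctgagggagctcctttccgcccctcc

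Among these 4 windows the PU.1 letters stood in the Ly6c2 window only, 108 to 102 bases before the start, and 10.6% of 32817 promoter windows of the same length hold them on either strand. The window of Ccr2 overlaps the gene's span in the GENCODE annotation, which begins further upstream. RefSeq windows were matched for 7 of the 8 genes, Fn1 being the other. Ly6c2 has an additional start site whose window overlaps this one and holds the letters as well. The C/EBP letters TTGCNNAA, present in 9.57% of all windows, were found only in a window of Plac8 upstream of an additional start site. These matches describe letters only.

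None of the 8 genes passed the threshold between the genotypes (edgeR's quasi-likelihood test, Benjamini-Hochberg adjusted p under 0.05), and 3 of them, Vcan, Ccr1 and Fn1, had an unadjusted p under 0.05. Over all genes tested, 786 passed, 5.43%, with 350 higher and 436 lower in Pdcd1f/fLysMcre TAMs. Leaving out Pdcd1f/f replicate 1 raised that number to 3181, and leaving out Pdcd1f/f replicates 2 or 3 or Pdcd1f/fLysMcre replicates 1 or 2 lowered it to 224, 354, 222 and 370. In the main test 2.42% of all genes tested were higher and 3.01% lower, the shares beside which the counts of the lists stand. The share past the threshold was 19.6% with GC and length offsets, 21.6% without Pdcd1f/f replicate 1 and 26.2% without both libraries with a falling GC trend. The median log2 fold change of the 8 genes was −0.02, beside −0.0026 over all genes tested. The 3 libraries of each genotype did not overlap for Vcan, Ly6c2 and Cx3cr1, which is 3 of 8 genes, beside 27.5% of all genes tested. These are bulk libraries, in which fewer cells of a type and less RNA per cell cannot be told apart.

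**Figure D1:**
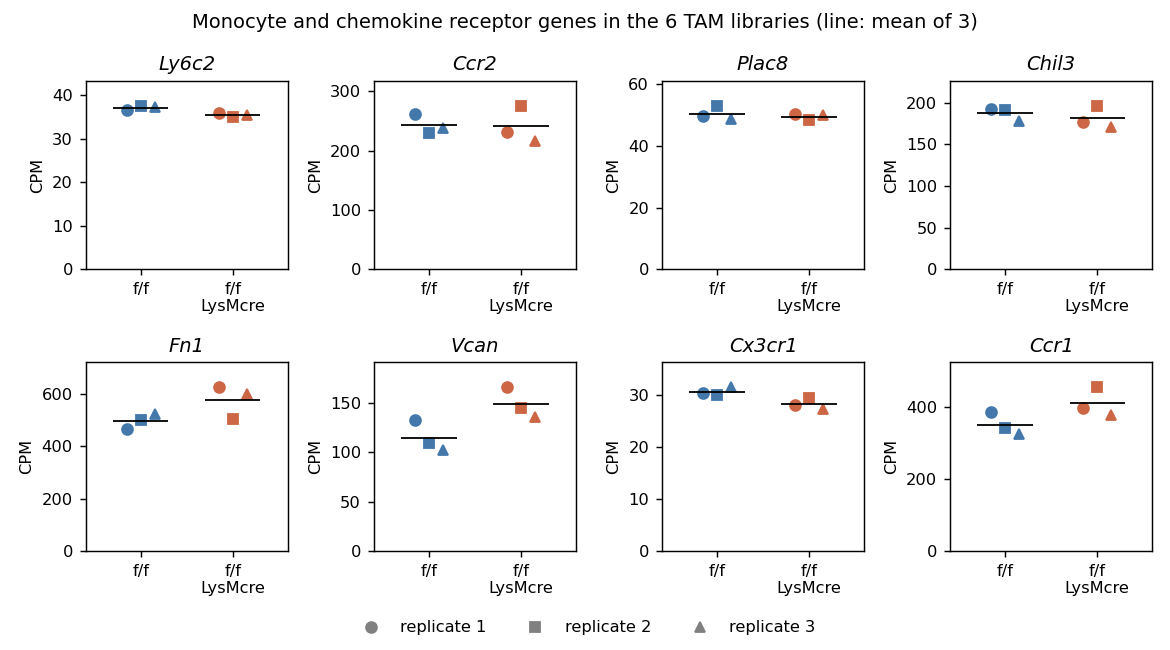
CPM of each of the 8 genes in the 3 Pdcd1f/f (blue) and 3 Pdcd1f/fLysMcre (orange) TAM libraries, with the vertical axis from 0, 1 symbol per replicate number and the mean of each genotype as a line. The genotypes lie apart for Ly6c2 and Cx3cr1 (Pdcd1f/fLysMcre lower) and for Vcan (Pdcd1f/fLysMcre higher), and overlap for the other 5 genes.

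Ly6c2 (ENSMUSG00000022584, chr15:75108158-75111970, minus strand, GRCm38) encodes the surface protein Ly6C of classical monocytes. It was measured at 36.5, 37.6 and 37.2 CPM in Pdcd1f/f replicates 1, 2 and 3 and at 35.9, 35.1 and 35.5 CPM in Pdcd1f/fLysMcre replicates 1, 2 and 3. All 3 Pdcd1f/fLysMcre libraries were below all 3 Pdcd1f/f libraries, by a small margin. In the authors' normalized counts the means were 1751.1 ± 21.5 and 1673.0 ± 20.4 (SD, n = 3). The fold difference was 0.957, with a 95% interval of 0.866 to 1.06 (log2 −0.06, SE 0.06, adjusted p = 0.579 from edgeR). An exact two-sided permutation test gave p = 0.1, the smallest value that 3 libraries against 3 allow. Of the 42-base stretches of its transcripts, the length of a read, 17.9% also occur in other genes, mostly in Ly6c1, which was itself at only 0.801 and 0.582 CPM.

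Plac8 (ENSMUSG00000029322, chr5:100553725-100572245, minus strand) encodes a small cysteine-rich protein that is abundant in classical monocytes. Its libraries were at 49.6, 53.1 and 48.6 CPM in Pdcd1f/f TAMs and at 50.4, 48.4 and 49.9 CPM in Pdcd1f/fLysMcre TAMs. The genotypes overlapped, with a log2 fold change of −0.02 (SE 0.07, 95% interval −0.17 to 0.12, adjusted p = 0.856 from edgeR). Chil3 (ENSMUSG00000040809, chr3:106147554-106167564, minus strand) encodes the secreted chitinase-like protein Ym1 of monocytes and alternatively activated macrophages. It was at 192.7, 191.8 and 178.1 CPM in Pdcd1f/f and at 176.4, 196.5 and 170.5 CPM in Pdcd1f/fLysMcre TAMs. Here too the libraries overlapped, since Pdcd1f/fLysMcre replicate 2 was the highest of all 6 (log2 fold change −0.05, SE 0.07, 95% interval −0.21 to 0.11, adjusted p = 0.699 from edgeR). Of the Chil3 stretches, 32.7% are shared with other genes, mostly with Chil4, and Chil4 had at most 7 counts in any library.

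Ccr2 (ENSMUSG00000049103, chr9:124101950-124113557, plus strand) encodes the receptor of CCL2, CCL7 and CCL12 that draws monocytes into tissue. Its level was 260.8, 229.6 and 238.3 CPM in Pdcd1f/f replicates 1, 2 and 3 and 230.9, 275.7 and 215.9 CPM in Pdcd1f/fLysMcre replicates 1, 2 and 3. The libraries of the genotypes overlapped fully, with the highest and the lowest value both in Pdcd1f/fLysMcre TAMs. The normalized means were 11469.4 ± 793.7 and 11355.4 ± 1472.9 (SD, n = 3), a fold difference of 0.992 with a 95% interval of 0.861 to 1.14 (log2 −0.01, SE 0.09, adjusted p = 0.948 from edgeR). The highest library of each genotype was the library with the falling GC trend, and the Ccr2 transcript has a GC content of 39.4%. Between those 2 libraries alone the log2 ratio was 0.08, and between the other 4 the log2 difference was −0.07. With offsets on GC content and transcript length the log2 fold change was −0.13 and did not pass (adjusted p = 0.0804 from edgeR).

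Ccr1 (ENSMUSG00000025804, chr9:123962124-123968692, minus strand) encodes a receptor of CCL3, CCL5 and the related chemokines CCL6 and CCL9. It was counted at 384.3, 341.3 and 322.9 CPM in Pdcd1f/f TAMs and at 396.3, 454.2 and 376.4 CPM in Pdcd1f/fLysMcre TAMs. Pdcd1f/f replicate 1 lay within the range of the other genotype, and the remaining Pdcd1f/f libraries lay below it. The fold difference was 1.17, with a 95% interval of 1.02 to 1.34 (log2 0.23, SE 0.09, unadjusted p = 0.0263, adjusted p = 0.149 from edgeR). Its GC content is 39.1%, like that of Ccr2, and again the library with the falling GC trend was the highest of its genotype. The log2 ratio between those 2 libraries was 0.24, and the log2 difference between the other 4 was 0.22. Without Pdcd1f/f replicate 1 the log2 fold change was 0.29 and the adjusted p was 0.019 in edgeR's test, a fit in which 21.6% of all genes tested passed. That was the only single library without which Ccr1 passed. The log2 fold change was 0.14 without Pdcd1f/fLysMcre replicate 2 and 0.17 without Pdcd1f/f replicate 3 (adjusted p = 0.413 and 0.41 from edgeR).

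Cx3cr1 (ENSMUSG00000052336, chr9:119901616-120069879, minus strand, a span that takes in several neighbouring genes) was the lowest of the 8 genes per length. Its values were 30.3, 30.0 and 31.5 CPM in Pdcd1f/f TAMs and 28.1, 29.4 and 27.2 CPM in Pdcd1f/fLysMcre TAMs. All 3 Pdcd1f/fLysMcre libraries were below the Pdcd1f/f libraries, with a fold difference of 0.923 and a 95% interval of 0.828 to 1.03 (log2 −0.12, SE 0.07, adjusted p = 0.34 from edgeR). The exact permutation test gave p = 0.1.

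For 5 genes, Ly6c2, Plac8, Chil3, Ccr2 and Cx3cr1, the 95% intervals of the fold difference lay between 0.828, the lower bound of Cx3cr1, and 1.14, the upper bound of Ccr2, so larger differences lie outside them. The intervals come from the spread of 3 libraries against 3, and they were not adjusted for the number of genes.

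Fn1 (ENSMUSG00000026193, chr1:71585520-71653200, minus strand) encodes fibronectin, a matrix glycoprotein that monocytes and macrophages also make. It was measured at 465.1, 500.9 and 525.7 CPM in Pdcd1f/f and at 627.2, 503.5 and 599.5 CPM in Pdcd1f/fLysMcre TAMs. Pdcd1f/fLysMcre replicates 1 and 3 were above every Pdcd1f/f library, and replicate 2 lay among them. The normalized means were 23476.1 ± 1436.6 and 27190.8 ± 3055.5 (SD, n = 3), a fold difference of 1.16 with a 95% interval of 1.02 to 1.33 (log2 0.21, SE 0.09, unadjusted p = 0.0324, adjusted p = 0.164 from edgeR). Fn1 has the highest GC content of the 8 genes, 53.5%, and the libraries with the falling GC trend were the lowest of their genotypes. Between these 2 the log2 ratio was 0.11, and the log2 difference between the other 4 was 0.26. Apol7d, annotated on the opposite strand across the Fn1 start, was read 1, 3 and 2 times in Pdcd1f/f TAMs and 20, 14 and 11 times in Pdcd1f/fLysMcre TAMs, beside at least 21064 counts for Fn1, and whether reads were counted by strand is not given in the sources used here.

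Vcan (ENSMUSG00000021614, chr13:89655312-89742509, minus strand) encodes versican, a large proteoglycan of the matrix whose transcript is typical of classical monocytes. Its values were 132.7, 109.1 and 101.7 CPM in Pdcd1f/f TAMs and 165.9, 144.9 and 135.3 CPM in Pdcd1f/fLysMcre TAMs. Every Pdcd1f/fLysMcre library was above every Pdcd1f/f library, although Pdcd1f/fLysMcre replicate 3 exceeded Pdcd1f/f replicate 1 by little. Normalized means were 5407.2 ± 772.9 and 7010.5 ± 741.1 (SD, n = 3), a fold difference of 1.30 with a 95% interval of 1.10 to 1.53. The log2 fold change of 0.38 (SE 0.11) had an unadjusted p of 0.0049 and an adjusted p of 0.067 in edgeR's test, and the exact permutation test gave p = 0.1. The study, which used DESeq2 and q-values under 0.05, names Vcan among the genes upregulated in Pdcd1f/fLysMcre TAMs. Leaving out Pdcd1f/f replicate 1 gave a log2 fold change of 0.49 and an adjusted p of 0.002, again beside 21.6% of all genes tested. Vcan passed with no other single library left out. The log2 fold change was 0.29 without Pdcd1f/fLysMcre replicate 1 and 0.30 without Pdcd1f/f replicate 3 (adjusted p = 0.233 and 0.214 from edgeR). Without both libraries with a falling GC trend the log2 fold change was 0.51, and between those 2 libraries alone it was 0.13. The antisense gene Gm4117 was read 42, 26 and 28 times in Pdcd1f/f TAMs and 41, 27 and 47 times in Pdcd1f/fLysMcre TAMs, beside at least 4394 for Vcan.

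The calls of Vcan, Fn1 and Ccr1 differed between the alternatives. With offsets fitted per library on GC content and transcript length, the log2 fold changes and edgeR's adjusted p-values were 0.34 and 0.000546 for Vcan, 0.30 and 0.000179 for Fn1, and 0.13 and 0.0238 for Ccr1. The same fit called 2837 of 14454 genes, 19.6%, so 3 of 8 stands beside a much higher share of all genes than in the main test. Without both libraries with a falling GC trend, an alternative chosen after the data were seen, the same 3 genes passed (adjusted p = 0.00135, 0.000717 and 0.00325 from edgeR for Vcan, Fn1 and Ccr1), as did 26.2% of all genes tested. With the GC trend class of the library (falling or not) as a term, also chosen after the data were seen, Vcan did not pass (log2 fold change 0.38, adjusted p = 0.122 from edgeR), while Fn1 (0.21, adjusted p = 0.000355) and Ccr1 (0.23, adjusted p = 0.000114) did, beside 31.3% of all genes tested. DESeq2 called Vcan (adjusted p = 0.0113), as it did 5.76% of all genes with a count, and none of the other 7. DESeq2 can leave genes of low count without an adjusted p, and that share includes them, so it is not comparable with edgeR's shares. The same 3 genes passed in edgeR over all genes with at least 1 count, as did 7.32% of those genes, and with the offsets and a replicate block together, as did 20.2%. The replicate block alone called Vcan, and 7.1% of all genes tested. Ly6c2, Ccr2, Plac8, Chil3 and Cx3cr1 passed in none of the 17 alternatives run. Without both libraries with a falling GC trend their log2 fold changes were −0.07, −0.07, −0.02, −0.10 and −0.16 in that order.

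**Figure D2:**
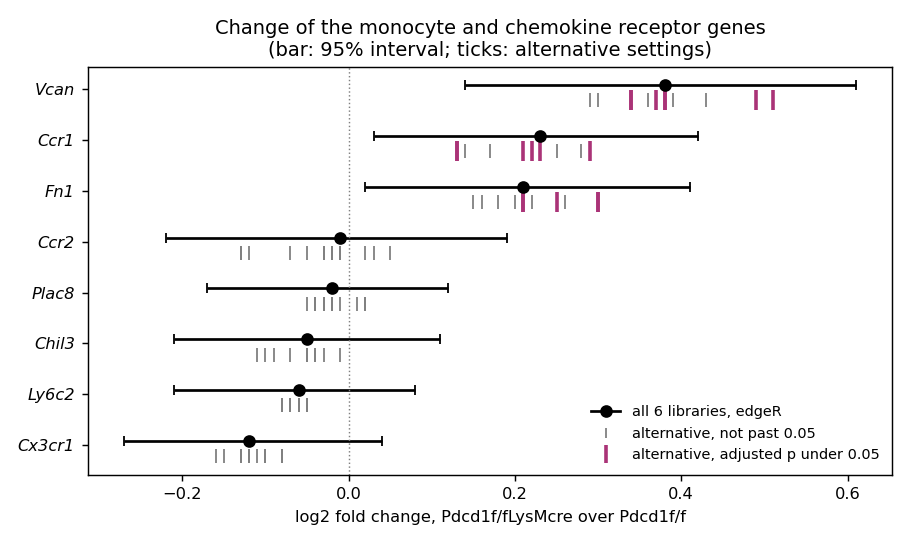
Log2 fold change of each gene, Pdcd1f/fLysMcre over Pdcd1f/f, from edgeR on all 6 libraries (black point, bar for the 95% interval), with the values of 17 alternative settings as ticks below it (thick purple where the adjusted p was under 0.05). Vcan passed in 7, Ccr1 in 6 and Fn1 in 5 of the 17 alternatives, all with values above 0, and the other 5 genes passed in none.

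**Figure D3:**
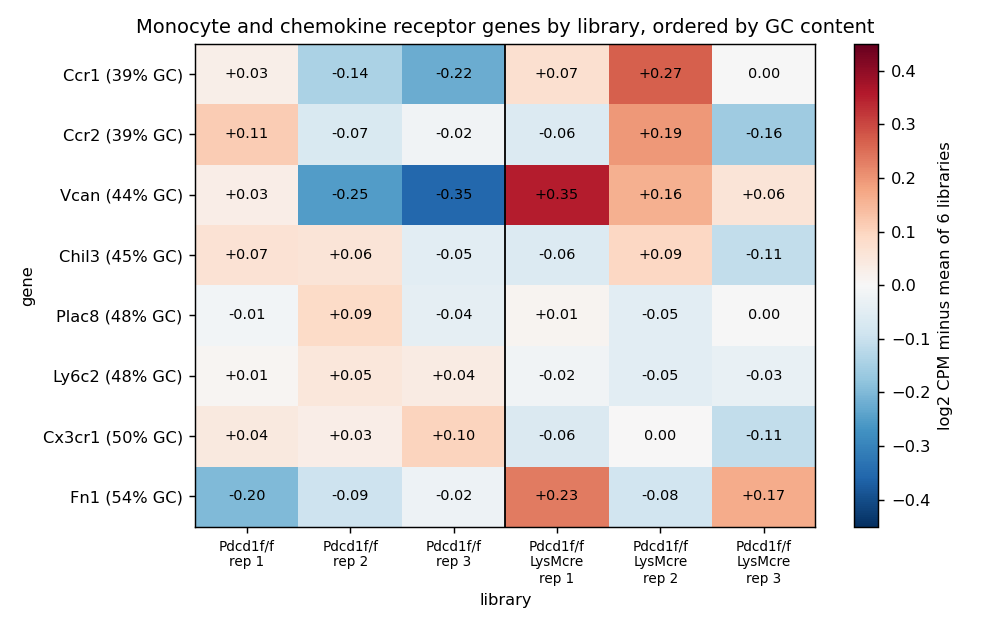
Deviation of each library (columns) from the gene's mean over the 6 libraries, in log2 CPM, for the 8 genes (rows) ordered by the GC content of the transcript. Ccr1 and Ccr2, at 39% GC, were highest in Pdcd1f/fLysMcre replicate 2 and, within Pdcd1f/f, in replicate 1, where Fn1, at 54% GC, was lowest.

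Levels were compared between genes per kilobase of exon, over the 6 libraries. Ccr1 had the highest mean level, 133.9 CPM per kilobase (range 114.0 to 160.3), and overlapped with Chil3 at 112.9 (104.5 to 120.4). Fn1 followed at 46.0 (39.8 to 53.7), Ccr2 at 35.8 (31.9 to 40.8) and Plac8 at 31.4 (30.4 to 33.4), and neighbours among these 3 also overlapped. Ly6c2 at 13.2, Vcan at 9.1 and Cx3cr1 at 6.53 CPM per kilobase each lay apart from the next. In CPM without this scaling Fn1 was above Ccr1 in every library, and its exons cover 11685 bases, beside 2833 for Ccr1.

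**Figure D4:**
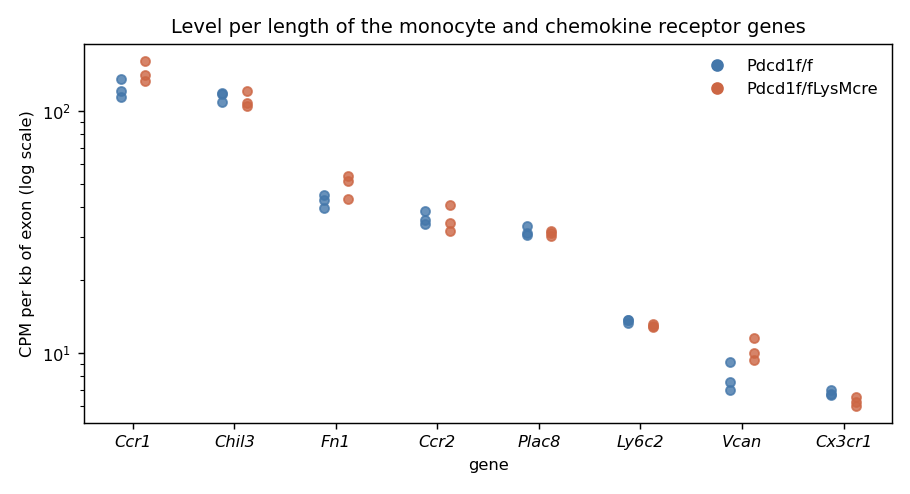
Level of the 8 genes in CPM per kilobase of exon on a logarithmic axis, in order of the mean, with 1 point per library (blue, Pdcd1f/f; orange, Pdcd1f/fLysMcre). Ccr1 and Chil3 lay between 104.5 and 160.3, Fn1, Ccr2 and Plac8 between 30.4 and 53.7, and Ly6c2, Vcan and Cx3cr1 at or below 13.7.

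Ccr1 and Ccr2 lie 133.3 kb apart in the receptor gene cluster of chromosome 9. Ccr3, the eotaxin receptor, which lies between Ccr1 and Ccr2, had a log2 fold change of 0.15 (95% interval −0.13 to 0.43, adjusted p = 0.509 from edgeR). Among 25 other receptor genes for chemokines and chemoattractants, 13 passed the filter on low counts, and 1 was higher and 1 lower past the threshold, beside 2.42% and 3.01% of all genes tested. Cxcr4, the CXCL12 receptor, fell from 419.8 ± 3.49 to 340.3 ± 17.6 CPM (log2 fold change −0.30, adjusted p = 0.0185 from edgeR), and Ackr3, the atypical receptor of the same chemokine, rose from 6.31 ± 0.538 to 8.87 ± 0.989 CPM (log2 fold change 0.49, adjusted p = 0.0409 from edgeR). The count of 2 was 3 without Pdcd1f/f replicate 1 and 0 without Pdcd1f/f replicates 2 or 3 or Pdcd1f/fLysMcre replicates 1 or 3. Without both libraries with a falling GC trend 1 was higher and 2 lower. The median log2 fold change of the list was 0.0.

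All 10 genes for ligands of the 3 receptors were tested, and 2 fell, with a list median of 0.05. Ccl8 fell from 201.0 ± 17.1 to 148.4 ± 9.63 CPM (log2 fold change −0.44, adjusted p = 0.0104 from edgeR) and Ccl5 from 22.2 ± 0.896 to 12.4 ± 1.19 CPM (log2 fold change −0.84, adjusted p = 0.000713 from edgeR). Without Pdcd1f/f replicate 2, 1 of the 10 passed, and without both libraries with a falling GC trend 1 was higher and 2 lower. Ccl2, the main ligand of CCR2, was at 426.8 ± 9.45 and 480.0 ± 25.2 CPM, with all 3 Pdcd1f/fLysMcre libraries above the others (log2 fold change 0.17, 95% interval 0.03 to 0.31, adjusted p = 0.132 from edgeR). The other CCR2 ligands gave log2 fold changes of 0.07 for Ccl7 (adjusted p = 0.603) and 0.10 for Ccl12 (adjusted p = 0.551). Of the other CC chemokines listed, Ccl3 gave −0.02 (adjusted p = 0.886), Ccl4 0.08 (adjusted p = 0.41), Ccl6 0.06 (adjusted p = 0.647) and Ccl9, the most abundant at 2539.0 and 2610.8 CPM, 0.04 (adjusted p = 0.79). Cx3cl1, the ligand of CX3CR1, was at 0.376 and 0.348 CPM (adjusted p = 0.9).

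Of 9 genes for cell surface receptors of fibronectin and versican, 3 rose and none fell, beside 2.42% and 3.01% of all genes tested. The list median was 0.08. Cd44, which binds hyaluronan and versican, rose from 1389.4 ± 66.2 to 1795.6 ± 72.3 CPM (log2 fold change 0.37, adjusted p = 0.00824 from edgeR). Itgav and Itgb3, the chains of a fibronectin-binding integrin, rose from 348.4 ± 20.5 to 439.9 ± 23.6 CPM and from 27.8 ± 1.53 to 35.6 ± 1.04 CPM (log2 fold changes 0.34 and 0.36, both with an adjusted p of 0.0192 from edgeR). Without both libraries with a falling GC trend 4 were higher and 2 lower, and 26.2% of all genes tested passed. The number past the threshold was 5 without Pdcd1f/f replicate 1, where 1 of them was lower and 21.6% of all genes tested passed. It was 0 without Pdcd1f/f replicate 2 or Pdcd1f/fLysMcre replicate 1, and 1 without Pdcd1f/fLysMcre replicate 2. Together with Fn1 and Vcan, whose own differences did not pass, these values are given side by side and no joint test was made.

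Other genes of monocytes were read from lists. Of 22 further genes of classical monocytes, 1 rose and 2 fell past the threshold, 19 did not pass, and the median log2 fold change was −0.04. F13a1, the A subunit of coagulation factor XIII, fell from 1053.8 ± 27.3 to 636.4 ± 33.7 CPM (log2 fold change −0.73, SE 0.06, adjusted p = 0.000143 from edgeR). Mgst1, a glutathione transferase of membranes, fell from 8.64 ± 0.621 to 6.39 ± 0.252 CPM (log2 fold change −0.44, adjusted p = 0.0374 from edgeR). Cd177, a surface glycoprotein better known from neutrophils, rose from 1.03 ± 0.223 to 1.99 ± 0.313 CPM (log2 fold change 0.95, adjusted p = 0.0356 from edgeR). With GC offsets 8 of the 22 were higher and 4 lower, beside 19.6% of all genes tested past the threshold. Without both libraries with a falling GC trend 4 were higher and 6 lower, beside 26.2%. The count of 3 past the threshold was 5 without Pdcd1f/f replicate 1 and 1 when any other single library was left out. The summed level of the list was 14167.5 to 15192.5 CPM in the Pdcd1f/f and 14775.2 to 15084.1 CPM in the Pdcd1f/fLysMcre libraries, which overlap.

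Of 12 genes of nonclassical monocytes, the cells in which Cx3cr1 is high, 1 rose and 2 fell, with a median of 0.03. Adgre4, an adhesion receptor related to F4/80, rose from 1.53 ± 0.316 to 3.32 ± 0.622 CPM (log2 fold change 1.12, adjusted p = 0.0114 from edgeR). Fabp4, a fatty acid carrier, fell by 0.69 on the log2 scale, to 7.44 ± 1.17 CPM (adjusted p = 0.0202 from edgeR), and Csf1r, the receptor of the macrophage growth factor CSF-1, fell from 1421.7 ± 103.1 to 1141.6 ± 59.1 CPM (log2 fold change −0.32, adjusted p = 0.0308 from edgeR). With GC offsets 4 were higher and 2 lower, beside 19.6% of all genes tested past the threshold. Without both libraries with a falling GC trend 3 were higher and 5 lower, beside 26.2%. The number past the threshold was 6 without Pdcd1f/f replicate 1 and 0 without Pdcd1f/f replicate 2 or Pdcd1f/fLysMcre replicate 1.

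Genes of mature macrophages were read beside them. Of 20 such genes 19 were tested, and 16 fell and 1 rose, beside 3.01% and 2.42% of all genes tested. The median log2 fold change was −0.55. The list was chosen with earlier results of these data known, and the study had reported Cd163 and other genes of it as diminished. The count of 16 is therefore a description and not an independent test. Cd163, the scavenger receptor for hemoglobin, fell from 98.4 ± 5.46 to 45.8 ± 1.07 CPM (log2 fold change −1.10, adjusted p = 9.01e-06 from edgeR), and Apoe, the lipid carrier apolipoprotein E, from 3263.4 ± 656.2 to 1669.5 ± 219.6 CPM (log2 fold change −0.97, adjusted p = 0.0034 from edgeR). Lyve1, a hyaluronan receptor of tissue macrophages, and Siglec1, which binds sialic acid, fell by 0.92 and 0.74 on the log2 scale (adjusted p = 0.00603 and 0.0032 from edgeR). Spp1, the gene of osteopontin, was named after its value was seen, as the 1 gene of the list that passed in the other direction, and rose from 1650.0 ± 29.5 to 1975.8 ± 118.6 CPM (log2 fold change 0.26, adjusted p = 0.0403 from edgeR). Gpnmb, a membrane glycoprotein also named after its value was seen, was at 253.4 ± 10.6 and 295.3 ± 8.9 CPM, with every Pdcd1f/fLysMcre library above every Pdcd1f/f library, and did not pass (log2 fold change 0.22, adjusted p = 0.0633 from edgeR). Of the 19, 16 were lower and 2 higher with GC offsets and also without both libraries with a falling GC trend. Those fits called 19.6% and 26.2% of all genes tested. The number past the threshold was 7 without Pdcd1f/f replicate 2 and 7 without Pdcd1f/fLysMcre replicate 1, beside 1.51% of all genes tested in either fit. No gene of the list was higher past the threshold with the replicate block or without Pdcd1f/f replicate 2 or replicate 3. The same held with any 1 Pdcd1f/fLysMcre library left out, so the call of Spp1 was lost in these fits. The summed level of the list was 14775.1 to 17415.9 CPM in the Pdcd1f/f and 11813.1 to 12551.3 CPM in the Pdcd1f/fLysMcre libraries.

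**Figure D5:**
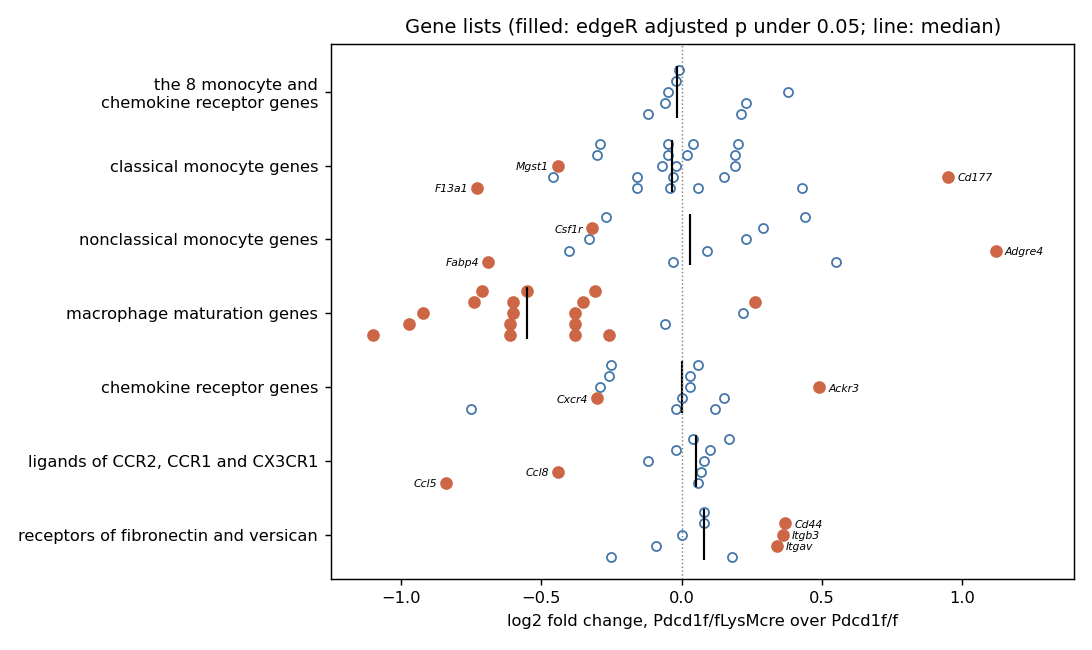
Log2 fold change, Pdcd1f/fLysMcre over Pdcd1f/f, of every tested gene of the 8 genes and of 6 lists, with filled orange circles for an adjusted p under 0.05 in edgeR, open circles for the rest, and a line at the median. None of the 8 genes is filled, and 17 of 19 macrophage maturation genes are, around a median of −0.55.

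Of 9 paralogs of Ly6c2, Chil3 and Plac8, 6 were below 1 CPM in every library and 3 were tested, and Ly6a, the gene of the surface protein Sca-1, fell from 148.0 ± 3.19 to 107.5 ± 3.6 CPM (log2 fold change −0.46, adjusted p = 0.00182 from edgeR). Ly6e and Ly6i gave log2 fold changes of −0.27 and −0.35 and did not pass (adjusted p = 0.076 and 0.144 from edgeR). The count of 1 was 2 without Pdcd1f/f replicate 1, with GC offsets and without both libraries with a falling GC trend, and 3 with the class term.

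Markers of other cells that a sort could carry along were read in the same libraries. Neutrophil markers summed to 139.1 to 143.2 CPM in the Pdcd1f/f and 116.7 to 119.8 CPM in the Pdcd1f/fLysMcre libraries, and 2 of 6 tested fell, Csf3r (log2 fold change −0.51, adjusted p = 0.00686 from edgeR) and Mmp8 (−0.48, adjusted p = 0.00393 from edgeR), while the defining Ly6g had at most 3 counts and 7 of the 12 were below 1 CPM in every library. Of the 6 tested, 3 had a positive and 3 a negative log2 fold change, and S100a8 was at 26.5 ± 4.33 and 31.2 ± 1.51 CPM (log2 fold change 0.23, adjusted p = 0.22 from edgeR). Of these neutrophil markers 1 passed without Pdcd1f/f replicate 2, and 1 was higher and 2 lower without Pdcd1f/f replicate 1, with GC offsets and without both libraries with a falling GC trend. Fibroblast and sarcoma markers, cells that also make Fn1 and Vcan, summed to 91.2 to 96.6 and 83.7 to 96.1 CPM, and 1 of 13 tested fell, Col1a2 from 2.79 ± 0.261 to 1.39 ± 0.254 CPM (adjusted p = 0.0121 from edgeR). None of these 13 rose, none passed without Pdcd1f/f replicate 3 or without Pdcd1f/fLysMcre replicate 1, 2 fell without Pdcd1f/f replicate 1 and also without both libraries with a falling GC trend, and the summed level of all 16 was below that of Vcan in every library. Dendritic cell markers summed to 7.54 to 9.19 and 9.51 to 11.3 CPM with none of 6 past the threshold, 5 of the 6 positive and a median log2 fold change of 0.45, the most abundant being Ccr7 at 3.58 and 3.67 CPM and Ly75 at 1.65 and 2.28 CPM. T and NK cell markers summed to 1.6 to 1.9 and 1.39 to 1.62 CPM, with Cd2 and Gzma below 1 CPM, and B cell markers to 3.57 to 4.47 and 2.55 to 3.47 CPM, most of it Cd79b at 3.83 and 2.66 CPM, followed by Ms4a1 at 0.121 and 0.201 CPM, with none past the threshold in either list. Flt3 and Zbtb46, genes of conventional dendritic cells, gave log2 fold changes of 0.67 and 0.69 (adjusted p = 0.137 and 0.12 from edgeR). Without Pdcd1f/f replicate 1, and also without both libraries with a falling GC trend, 1 dendritic cell marker was higher and 1 B cell marker lower past the threshold. Endothelial markers summed to 39.7 to 42.3 and 32.2 to 35.3 CPM, and 1 of 4 tested fell, Pecam1, which myeloid cells also express, from 22.9 ± 1.08 to 14.9 ± 1.32 CPM (adjusted p = 0.0034 from edgeR). Cdh5, the gene of VE-cadherin, was at 3.58 and 3.56 CPM, and Kdr, a VEGF receptor, at 14.6 and 14.8 CPM (adjusted p = 0.972 and 0.917 from edgeR). The part of these cells in the values of the 8 genes was not tested.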

How the data were processed

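RNA-seq was measured in 6 TAM libraries. The authors trimmed adapters (cutadapt 2.5), aligned paired-end reads to GRCm38 with STAR (2.7.3a) and counted them per Ensembl gene with featureCounts, giving the deposited raw counts, which are not normalized. The deposited normalized table, a signal of counts divided by 1 DESeq2 (1.24.0) size factor per library, holds 16552 genes. Recomputed size factors equalled those of the table. No sample column was left out. Strand and multi-mapping settings are not given in the sources used here. Groups and replicate numbers came from the labels.

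Raw counts were tested with edgeR 4.0.16 (R 4.3.3): filterByExpr (minimum count 10, total 15), TMM, glmQLFit with robust estimation, glmQLFTest, and Benjamini-Hochberg adjustment over all genes tested, at 0.05. CPM use TMM library sizes. Intervals are 95% intervals from the log2 fold change, its SE (from the F statistic) and the moderated degrees of freedom. Exact permutation tests used log2 CPM (scipy 1.17.1). Lengths, GC content and positions came from GENCODE M21, promoters from RefSeq. Alternatives were other normalizations and filters, DESeq2 1.42.0, limma-trend 3.58.1 on log2(value + 1) of the normalized table, a replicate block, GC and length offsets (loess, span 0.5), each library left out, and a threshold of 0.01. The main edgeR fit was tested on simulated counts that held no GC trend, and the alternatives were not tested in this way.

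The genes and lists were chosen with earlier results of these data known. Named are the 8 genes, Pdcd1, Lyz2 and Lyz1 as checks of the labels, the ligands of their receptors, and from each other list the genes past the threshold, at most 4 by absolute log2 fold change, or the 2 of highest mean CPM where none passed. Outside this rule, and with their values known, Ccr3, Ly6c1, Ly6e, Ly6i, Ly6g, Chil4, Itgam, Ptprc, Spp1, Gpnmb, S100a8, Flt3, Zbtb46, Cdh5, Kdr and the overlapping genes Apol7d and Gm4117 are named too. Genes with patterns most like a gene past the threshold were to be named, and none of the 8 passed. Some genes first placed on the lists are not reported here and were taken out of the lists and of the counts over them. Every other list gene enters the counts, named or not.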

Additional observations from a re-analysis of the deposited data

How the results depend on the processing

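The number of genes past the threshold, 786, was 1951 over all genes with at least 1 count, 1533 with DESeq2, 2837 with GC and length offsets, 2922 with the offsets and the replicate block, 283 at a threshold of 0.01, 222 to 3181 with 1 library left out, and, in alternatives chosen after seeing the data, 4525 with the GC trend class of the library as a term and 3757 without both libraries with a falling GC trend. Of the 8 genes, 3 passed over all genes with at least 1 count, 1 with DESeq2, 3 with the offsets, 3 with the offsets and the block, 2 with the class term, 3 without both libraries, and 0 to 2 with 1 library left out. The replicate numbers did not pair the libraries (correlations of same-numbered deviations −0.0132, −0.097 and 0.22), and the replicate block called 1 of the 8, Vcan (log2 0.38, adjusted p = 0.00569 from edgeR), beside 1027 of all genes tested, 7.1%. Log2 fold changes at which Vcan passed were 0.37 over all genes with a count, 0.38 with DESeq2, 0.34 with either offset fit and 0.51 without both libraries. For Fn1 they were 0.21 over all genes with a count and with the class term, 0.30 with either offset fit and 0.25 without both libraries, and for Ccr1 0.22, 0.23, 0.13 and 0.21 in the same order. With 1 library left out, Vcan ranged from 0.29 to 0.49, Ccr1 from 0.14 to 0.29 and Chil3 from −0.11 to −0.01. Ccr2 ranged from −0.12 to 0.05 and Plac8 from −0.05 to 0.01. Plac8 also changed sign with either offset fit (0.02). With GC and length offsets 1 of the 13 other receptor genes was higher and 3 lower, 2 of the 10 ligand genes were higher and 2 lower, and 5 of the 9 matrix receptor genes were higher, while DESeq2 called 5 of the 22 classical monocyte genes higher and 3 lower. The causes were not tested. Log2 fold changes of Ly6c2, Chil3, Fn1, Vcan, Cx3cr1 and Ccr1 kept their sign in all 17 alternatives. Each of the 8 had at least 1261 counts in every library, whereas Pdcd1 had 7 to 16. Whether depth limits the comparisons of the 8 was not tested.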
